A study of Mus musculus with 6 samples.

Results

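Insulin-like growth factors (IGFs) are held by binding proteins, and their release is one step that sets how much reaches the receptors. The genes described here act along that route. The group holds 8 genes, chosen by symbol, out of 23420 symbols in the count tables. It comprises the pappalysin proteases Pappa and Pappa2, their stanniocalcin inhibitors Stc1 and Stc2, the ligands Igf1 and Igf2, and the receptors Igf1r and Igf2r. The data are RNA sequencing of 3 Smad7-/- and 3 wild-type libraries of mouse tooth germs, all C57BL/6 and labelled E15.5. The product of Smad7 is a feedback inhibitor of the TGF-beta and BMP receptors. The labels name the Smad7-/- genotype without describing the allele, and do not say whether each library is a separate animal, so errors cover only the spread between these libraries. The group was proposed with the genotype comparison already known, in which Pappa2 was one of the called genes. Values of the 8 genes between genotypes are therefore given as a description, without p-values, and the calls made for them are stated without being read as support.

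PAPP-A and PAPP-A2 are secreted metalloproteases that cleave IGF binding proteins and so release bound IGF. PAPP-A is best known for cleaving IGFBP4, and PAPP-A2 for cleaving IGFBP3 and IGFBP5, while stanniocalcins 1 and 2 bind both proteases and block them. Free IGF1 and IGF2 signal through the tyrosine kinase encoded by Igf1r, whereas the receptor encoded by Igf2r takes IGF2 to the lysosome and also sorts lysosomal enzymes. In the developing tooth, IGF signalling is known for promoting growth and the differentiation of enamel- and dentin-forming cells.

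The pappalysins share a zinc-binding motif, which is shown because it is what makes both of them proteases. The motif was found by its pattern His-Glu-x-x-His-x-x-Gly-x-x-His in the translated GENCODE M21 coding sequences, of 5367 coding bases for Pappa2 and 4872 for Pappa. It lies in exon 4 of 22 in each transcript, at chr1:158857321-158857383 (reverse strand) for Pappa2 and chr4:65180905-65180967 (forward strand) for Pappa, both GRCm38. The lines below give these coding bases 5′ to 3′, with the 33 bases of the motif in capitals and 15 bases on each side.
Pappa2: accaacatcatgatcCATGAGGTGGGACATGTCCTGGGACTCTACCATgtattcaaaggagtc
Pappa: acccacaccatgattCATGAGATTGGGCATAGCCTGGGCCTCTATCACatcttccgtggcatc
Of the 33 motif bases, 25 were identical between these paralogs, and 45 of the 63 bases shown. How the counter treated reads that map to several places is not given in the sources used here.

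Because Pappa2 had the greatest fold change of the 8 genes, the 250 bases before its RefSeq start are shown as well (GRCm38.p6, chr1:158958176-158958425, reverse strand, 5′ to 3′). Capitals mark CAGAC on either strand, a motif that contains the CAGA box bound by SMAD3 and SMAD4.
Pappa2 promoter: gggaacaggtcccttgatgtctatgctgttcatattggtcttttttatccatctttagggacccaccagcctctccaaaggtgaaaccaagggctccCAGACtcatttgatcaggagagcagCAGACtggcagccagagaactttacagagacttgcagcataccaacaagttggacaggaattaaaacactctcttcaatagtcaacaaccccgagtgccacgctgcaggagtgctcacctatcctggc
The window held 2 matches, which begin 153 and 128 bases before the start. At least 2 matches were present in 11.7% of 32851 RefSeq promoter windows of the same length, and at least 1 in 42.2%, so such matches were common. The palindrome GTCTAGAC, present in 0.17% of the windows, did not occur in it. RefSeq promoter entries were found for 6 of the 8 genes, all but Pappa and Stc1, and counts of CAGAC in their 9 windows ran from 0 to 2.

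The libraries held between 37591888 and 56575476 counts. A filter on low counts left 15284 of the 23420 symbols for testing, over which the median log2 change was -0.0028 and the median standard error (SE) 0.14. All 8 genes passed the filter, with counts per library from 53 (Stc2) to 44798 (Igf2). Smad7 itself stood at 1.42 ± 0.709 CPM (read counts scaled to the TMM-adjusted library size) in Smad7-/- tooth germs and 19.4 ± 1.77 in wild type (SD, n = 3 each), and every library matched its label. Smad7-/- library 3 and wild-type library 1 carried Xist, the RNA of female cells, and the other 4 carried Y-linked reads. The first principal component, with 33.5% of the variance, separated Smad7-/- libraries 1 and 2 with wild-type library 1 (the first set here) from Smad7-/- library 3 with wild-type libraries 2 and 3 (the second set). These sets coincide exactly with the combination of genotype and sex, and the labels name no batch.

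Pappa2 was higher in every Smad7-/- library. It stood at 24.9, 27.5 and 29.3 CPM in the Smad7-/- libraries, against 11.9, 9.26 and 12.3 CPM in the wild-type libraries. The lowest Smad7-/- library thus lay above the highest wild-type library, and the spread within each group was small. The means were 27.3 ± 2.21 CPM in Smad7-/- and 11.2 ± 1.65 CPM in wild type (SD, n = 3 each), a 2.44-fold difference (log2 1.29 ± 0.14 SE). The difference was close to this size within each subset of the libraries. It was 1.30 on the log2 scale within the libraries with Xist, 1 per genotype, and 1.30 within those with Y-linked reads. It was 1.14 within the first set and 1.46 within the second, where the genotypes also differed in sex. These subsets reuse the libraries through which the gene was chosen, so they are a description. Among the 15284 genes, 38 had a larger positive log2 change. The gene spans chr1:158711727-158980490 on the reverse strand (GRCm38, GENCODE M21). The RefSeq start used above lies inside that span and not at its 5′ end, 158980490. Which start is used in these tooth germs was not examined.

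Pappa, the paralog, was present at a much lower level. Its values were 4.10, 2.83 and 5.66 CPM in the Smad7-/- libraries, against 2.18, 2.04 and 2.81 CPM in the wild-type libraries. The groups were only just apart, since Smad7-/- library 2 barely exceeded wild-type library 3. The log2 change was 0.84 ± 0.28 SE, and it was 0.56 without Smad7-/- library 3, the highest one. Within the libraries with Xist it was 1.37, and within those with Y-linked reads 0.51. With 101 to 326 counts per library, counting alone gave a coefficient of variation of up to 9.95%, against 33.8% between the Smad7-/- libraries and 17.3% between the wild-type libraries. Pappa lies at chr4:65124174-65357509, on the forward strand.

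Neither stanniocalcin gene stood apart between the genotypes. Stc1 stood at 8.84, 9.18 and 7.10 CPM in the Smad7-/- libraries, against 9.56, 8.11 and 8.02 CPM in the wild-type libraries. The groups overlapped, and Smad7-/- library 3 was the lowest of the 6. The log2 change was -0.03 ± 0.16 SE, and its sign turned to 0.07 without Smad7-/- library 3 and to 0.05 without wild-type library 1. Stc2 was the least counted of the 8 genes, at 1.41, 1.50 and 1.81 CPM in Smad7-/- and 2.20, 1.23 and 2.07 CPM in wild type. Its groups overlapped as well, with wild-type library 2 below all others (log2 -0.22 ± 0.30 SE). Counting error reached 13.7% at its lowest count, 53. Stc1 lies at chr14:69029238-69041804 on the forward strand, and Stc2 at chr11:31357307-31370074 on the reverse strand.

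**Figure D1:**
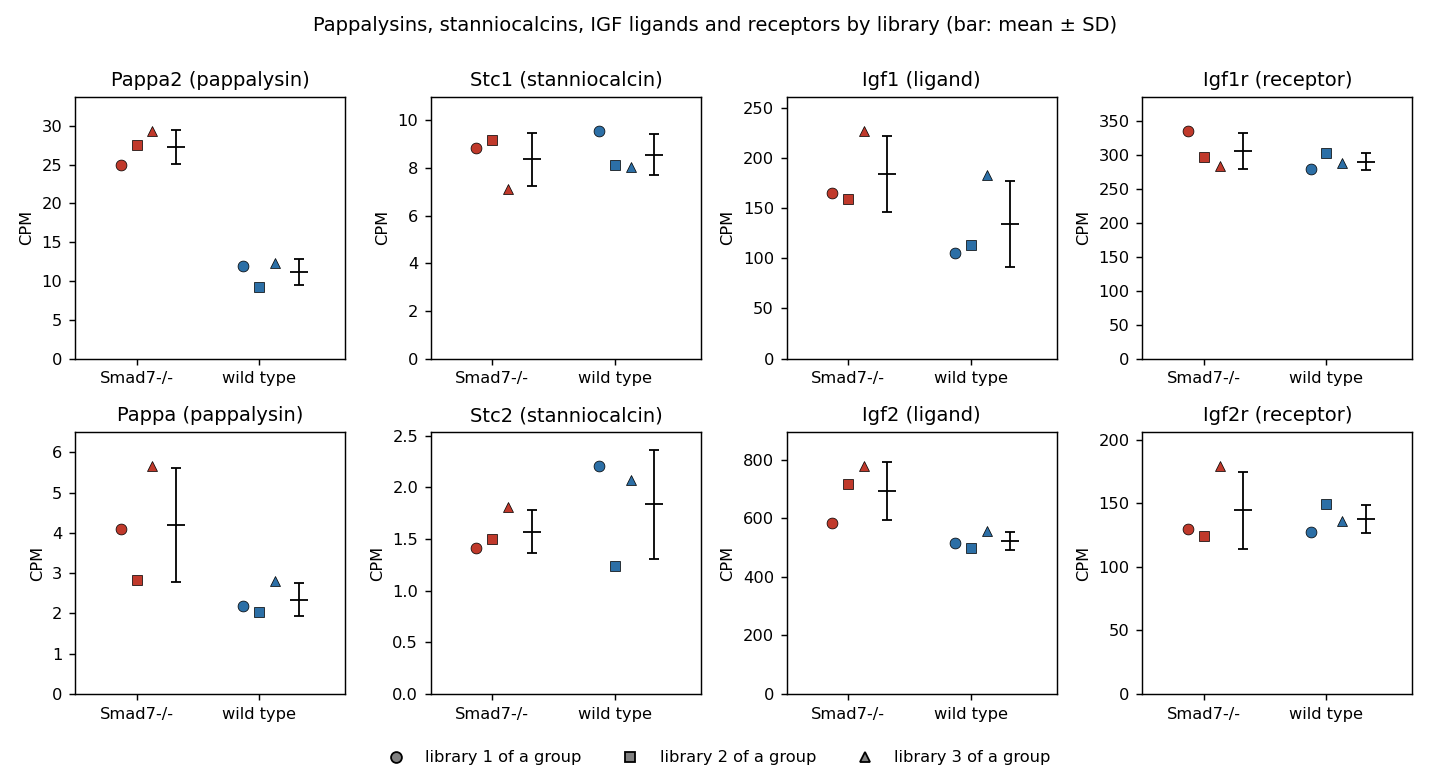
Level of each of the 8 genes in CPM by library, with Smad7-/- libraries in red on the left and wild-type libraries in blue on the right of each panel, and the mean ± SD of 3 libraries as a bar. Pappa2 lies between 24.9 and 29.3 CPM in Smad7-/- and between 9.26 and 12.3 CPM in wild type, whereas the Stc1, Stc2, Igf1, Igf1r and Igf2r groups overlap.

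Both ligand genes had higher means in Smad7-/- tooth germs, with different spreads. Igf2, the fetal growth factor expressed from the paternal allele, stood at 584, 716 and 778 CPM in the Smad7-/- libraries, against 516, 497 and 556 CPM in the wild-type libraries. The groups did not overlap, and Smad7-/- library 1 was close to the highest wild-type library. The means were 692 ± 98.8 CPM in Smad7-/- and 523 ± 30.0 CPM in wild type (SD, n = 3 each; log2 0.41 ± 0.12 SE). The difference had the same sign within the libraries with Xist (0.59) and those with Y-linked reads (0.30). Igf1, the other ligand, stood at 166, 160 and 228 CPM in Smad7-/- and 106, 114 and 183 CPM in wild type. Library 3 was the highest of each group, and wild-type library 3 exceeded Smad7-/- libraries 1 and 2, so the groups overlapped. The Igf1 log2 change was 0.46 ± 0.23 SE, with 0.28 without Smad7-/- library 3 and 0.75 without wild-type library 3. Within the libraries with Y-linked reads it was only 0.17, against 1.11 within those with Xist. Igf2 lies at chr7:142650766-142666816 on the reverse strand, and Igf1 at chr10:87858265-87937042 on the forward strand.

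The receptor genes had nearly equal means. Igf1r, the signalling receptor, stood at 335, 296 and 284 CPM in the Smad7-/- libraries, against 278, 303 and 288 CPM in the wild-type libraries (log2 0.07 ± 0.09 SE). The groups overlapped, with Smad7-/- library 1 the highest of the 6. Igf2r, the clearance receptor, stood at 130, 124 and 179 CPM in Smad7-/- and 127, 149 and 136 CPM in wild type (log2 0.07 ± 0.14 SE). Smad7-/- library 3 stood above the rest, and without it the Igf2r log2 change was -0.12. Airn, an antisense RNA whose gene span overlaps that of Igf2r, had 175 to 347 counts of its own per library. The library kit does not record the strand, so reads from any exon bases that Airn and Igf2r share cannot be told apart. Whether their exons overlap was not examined. Mir483 lies within Igf2 and had at most 3 counts. Igf1r lies at chr7:67952827-68233668 on the forward strand, and Igf2r at chr17:12682406-12769664 on the reverse strand. Other annotated genes whose spans overlap members (Igf1os, Igf2os, Gm49394, Gm41192 and 1600012P17Rik) are not among the counted symbols. Whether they share exon bases with the members was not examined, and reads from any shared bases cannot be told apart.

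Across the group, edgeR's quasi-likelihood test with Benjamini-Hochberg adjustment called 1 of the 8 genes, Pappa2, against 0.0262% of all 15284 genes (2 higher and 2 lower, 0.0131% each). The group was chosen through this very comparison, so nothing is read from that count. The call ended without Smad7-/- library 1, Smad7-/- library 2 or wild-type library 1, where the log2 change was 1.35, 1.29 and 1.34. The number called among all genes, 4, was 2, 1 and 7 without Smad7-/- libraries 1, 2 and 3. The groups were apart on the higher side for 3 of the 8 genes, Pappa2, Pappa and Igf2, against 4.97% of all genes. On the lower side they were apart for 0 of 8, against 3.91%, and 8.88% of all genes were apart on either side. The median log2 change was 0.24 over the 8 genes and -0.0028 over all genes tested.

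Levels of different genes were compared per kilobase of exon, with lengths from GENCODE M21. Igf2 was by far the most abundant, at 121 ± 17.3 CPM per kilobase in Smad7-/- and 91.3 ± 5.24 in wild type (SD, n = 3 each). Igf1r, Igf2r and Igf1 followed, with means of up to 18.6 in Smad7-/-, reached by Igf1, and up to 17.3 in wild type, reached by Igf1r. Igf1 overlapped each receptor in both genotypes, and the receptors overlapped each other in Smad7-/- but not in wild type, where Igf1r was higher. Stc1 and Pappa2 came next, and Stc2 and Pappa came last, with overlapping ranges in each genotype.

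The order of Pappa2 and Stc1 differed between the genotypes. In Smad7-/- tooth germs Pappa2 ranged from 2.42 to 2.85 CPM per kilobase, above Stc1 at 1.69 to 2.19. In wild type Pappa2 ranged from 0.900 to 1.19, below Stc1 at 1.91 to 2.28. Neither pair of ranges overlapped, and with the longest transcript in place of all exons the means kept these orders, at 2.86 for Pappa2 and 1.99 for Stc1 in Smad7-/- and 1.17 and 2.04 in wild type.

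**Figure D2:**
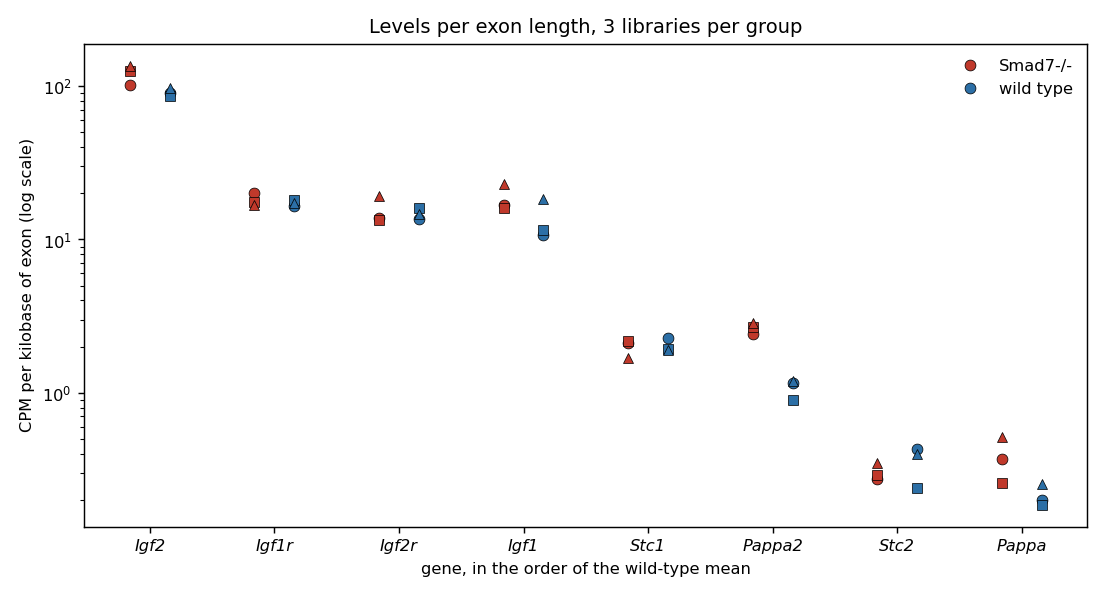
Level per kilobase of exon on a log scale for each gene and library, ordered by the wild-type mean, with Smad7-/- in red to the left of wild type in blue (circles, squares and triangles are libraries 1, 2 and 3). Pappa2 lies above Stc1 in all Smad7-/- libraries and below it in all wild-type libraries, while Igf2 tops both genotypes.

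Ratios within a library do not depend on the scaling between libraries. The summed stanniocalcins stood to the summed pappalysins at 0.851, 0.845 and 0.606 in the Smad7-/- libraries, against 1.99, 2.0005 and 1.60 in the wild-type libraries (per kilobase of exon). Inhibitor transcripts thus outnumbered protease transcripts in each wild-type library, and the reverse held in each Smad7-/- library. The mean ratio was 0.768 ± 0.140 in Smad7-/- and 1.86 ± 0.232 in wild type (SD, n = 3 each), a log2 difference of -1.29 that ran from -1.40 to -1.13 without any one library. Pappa2 and Stc1 supply most of either sum, so this ratio largely repeats the difference in Pappa2.

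Other ratios overlapped between the genotypes. Pappa2 stood to Pappa at 6.52, 10.4 and 5.56 in Smad7-/- and 5.84, 4.86 and 4.69 in wild type, with Smad7-/- library 2 the highest. The log2 difference was 0.50, and 0.24 without Smad7-/- library 2. The ratio of Igf2 to Igf1 averaged 6.59 ± 1.02 in Smad7-/- and 7.09 ± 1.66 in wild type. Igf1r to Igf2r averaged 1.21 ± 0.294 and Stc1 to Stc2 6.71 ± 1.62 in Smad7-/-, against 1.17 ± 0.0437 and 6.07 ± 1.78 in wild type.

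**Figure D3:**
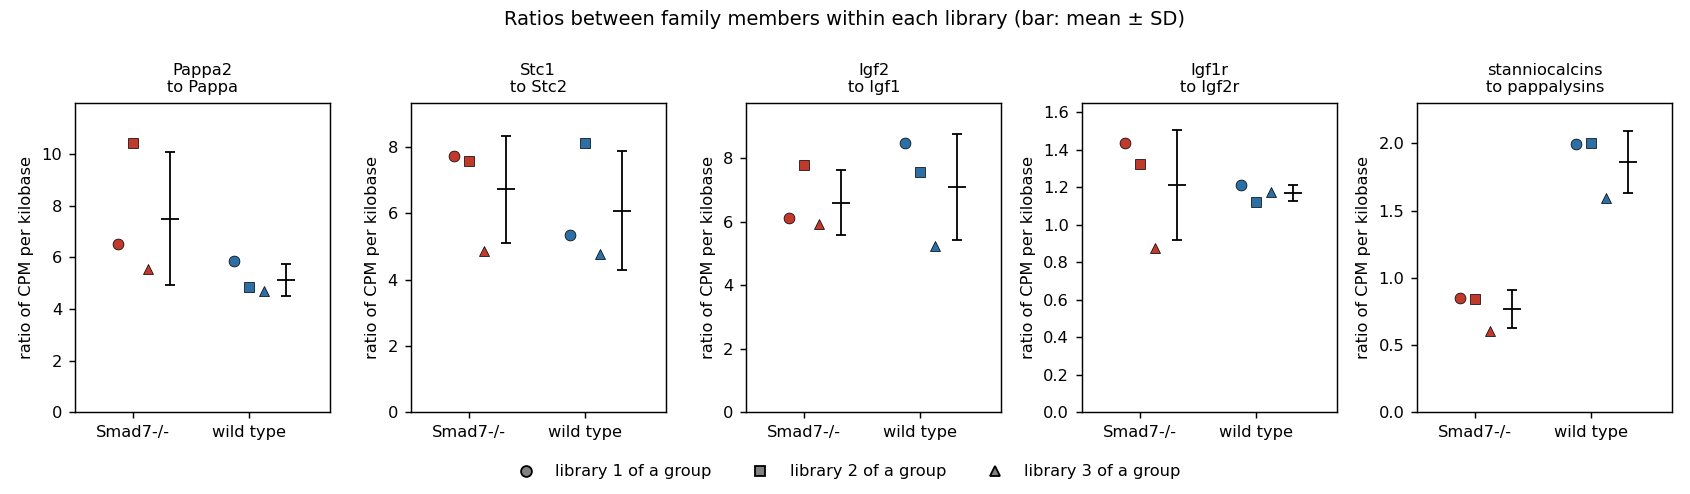
Ratios of levels per kilobase of exon within each library for 5 pairings, with Smad7-/- in red left of wild type in blue and bars for the mean ± SD of 3 libraries. The stanniocalcin to pappalysin ratio is at most 0.851 in Smad7-/- and at least 1.60 in wild type, and the other 4 ratios overlap.

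Genes around the 8 were read from 6 lists of the IGF route, which hold 80 distinct symbols, 78 of them in the tables and 69 tested. Of the 2 other symbols, Zac1 is an alias of Plagl1, which is listed and was tested. edgeR's quasi-likelihood test with Benjamini-Hochberg adjustment called 0 of the 69, against 0.0262% of all genes. An unadjusted p under 0.05 was found for 11 (15.9%), all higher in Smad7-/-, against 3.26% of all genes higher, 1.88% lower and 5.14% in either direction. DESeq2 called 2 of the 69, H19 among them, and 0.351% of all genes. The groups were apart for 10 of the 69 (14.5%), all higher, against 4.97%. The median log2 change of the 69 was 0.06. The lists were written with earlier results of these data known, so these shares are a description and nothing is read from them.

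The IGF binding proteins hold and transport the ligands, and some of them are substrates of the pappalysins. Of 8 genes listed, 7 were tested and 0 were called, 6 had a positive log2 change, and the median was 0.26. The list includes Igfals, whose product is not itself an IGF binding protein, and which had the only negative change (-0.36 ± 0.54 SE). The groups were apart on the higher side for 3 of the 7, against 4.97% of all genes, and on the lower side for 0. Igfbp5, the most abundant, stood at 3683 ± 101 CPM in Smad7-/- and 3069 ± 336 CPM in wild type (SD, n = 3 each; log2 0.26 ± 0.12 SE). Igfbp4, the main substrate of PAPP-A, stood at 541 ± 52.3 CPM in Smad7-/- and 390 ± 51.0 CPM in wild type. Its log2 change was 0.47 ± 0.12 SE (edgeR adjusted p = 0.608, DESeq2 adjusted p = 0.0591). Igfbp3, named after its values were seen because PAPP-A2 cleaves its product, was at 0.35 ± 0.14 SE with overlapping groups. Igfbp1 had at most 6 counts in a library.

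Other proteases reported to cleave IGF binding proteins had mostly small changes. Of 12 listed, 10 were tested, 0 were called, and the median log2 change was 0.09. Ctsd, the lysosomal cathepsin D, was at 0.01 ± 0.11 SE and Mmp2, a gelatinase, at 0.09 ± 0.13. Among genes that process or restrain pappalysins, Furin, a proprotein convertase, was at 0.06 ± 0.16, and Prg2, whose human product binds and inhibits PAPP-A, had at most 4 counts per library.

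Genes of insulin and IGF receptor signalling showed no common direction. Of 35 listed, 33 were tested and 0 were called, with 16 positive and 17 negative changes and a median of 0.00. Pik3r1, a regulatory subunit of PI3-kinase, stood at 387 ± 23.8 CPM in Smad7-/- and 424 ± 27.5 CPM in wild type (log2 -0.13 ± 0.09 SE). Ptpn11, the phosphatase SHP2, was at -0.04 ± 0.10. In this list 2 members, both positive, had an unadjusted p under 0.05.

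Imprinted growth genes and binders of Igf2 mRNA had 9 positive changes among 10 tested, with 0 called and a median of 0.22. H19, the imprinted RNA that shares its locus and enhancers with Igf2, stood at 987, 1203 and 1266 CPM in the Smad7-/- libraries, against 882, 818 and 807 CPM in the wild-type libraries. Its groups did not overlap, as for Igf2 (log2 0.46 ± 0.12 SE; edgeR adjusted p = 0.608, DESeq2 adjusted p = 0.0376). Mest, an imprinted gene of mesodermal tissues, was at 0.24 ± 0.15. Lysosomal sorting genes, which share the mannose 6-phosphate route of the Igf2r product, were tested in 9 of 9 cases. edgeR called 0 of them and DESeq2 1, with 8 positive changes and a median of 0.09. Their groups were apart on the higher side for 2, against 4.97% of all genes, and on the lower side for 0. Ctsb, cathepsin B, was at 0.19 ± 0.12.

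**Figure D4:**
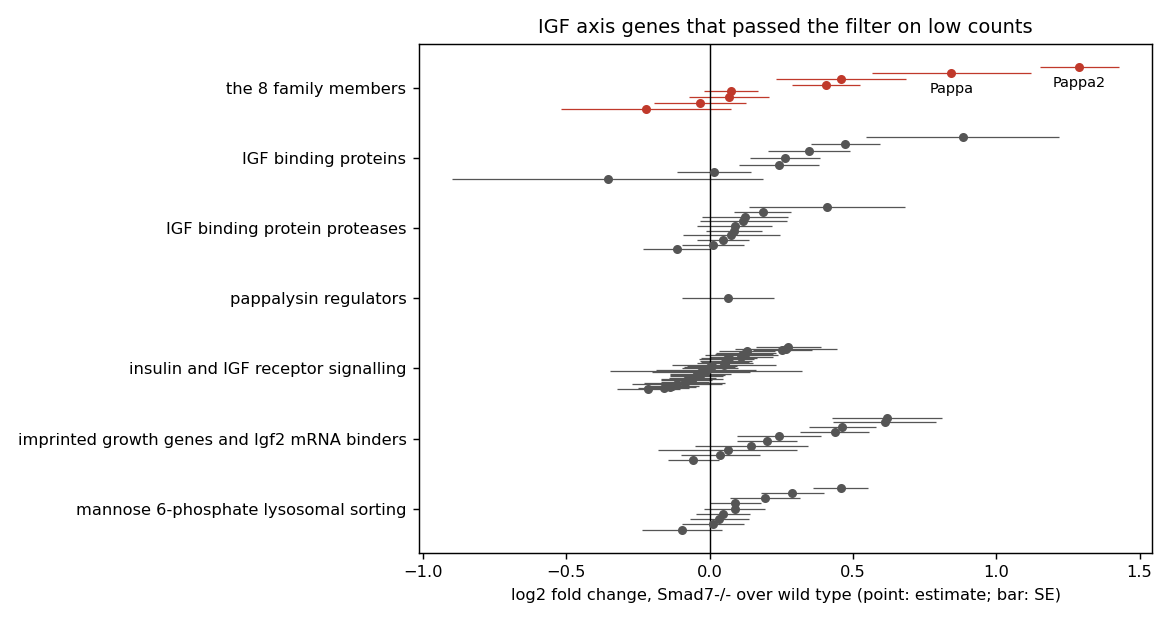
Log2 fold change of Smad7-/- over wild type with its SE for the 8 genes (red, top row) and for the tested genes of the 6 lists (grey), 1 point per gene, sorted within each row. Pappa2 lies at 1.29, beyond every listed gene, and the signalling list spreads around 0 with 16 positive and 17 negative points.

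The tissue check found markers of dental epithelium and mesenchyme in all libraries. Mean levels of mesenchyme markers ran from 10.3 CPM in Smad7-/- and 7.06 CPM in wild type (Pax9) to 566 and 574 CPM (Vcan). Summed levels over 12 epithelial genes were 8955 to 10661 CPM in Smad7-/- and 10458 to 11486 CPM in wild type. Of these 12 genes 11 had a negative change (median -0.12). The groups were apart on the lower side for 3 (Sp6, Shh and Esrp1, named after their values were seen), against 3.91% of all genes. On the higher side they were apart for 0, against 4.97%. Markers of other cells differed between the genotypes too. The 7 osteoclast markers all had positive changes (median 0.82), at 1087 to 1244 CPM summed in Smad7-/-, against 491 to 799 CPM in wild type. Of 10 macrophage markers 9 had positive changes (median 0.60), at 201 to 219 CPM summed in Smad7-/-, against 118 to 163 CPM in wild type. Of 15 dental mesenchyme markers 12 had a positive change (median 0.37). Their sums overlapped, at 1828 to 2093 CPM in Smad7-/- and 1745 to 1954 CPM in wild type. Gene by gene, the groups were apart on the higher side for 9 of these 15 and on the lower side for 0. They were apart on the higher side for 7 of 7 osteoclast and 8 of 10 macrophage markers, against 4.97% of all genes. The 3 red cell markers tested were at 16.8 to 28.7 CPM summed in Smad7-/-, against 35.3 to 50.5 CPM in wild type, and Hba-a1, Hba-a2, Hbb-b1 and Hbb-b2 were listed at 0. All 7 pericyte and 8 endothelial markers had positive changes (medians 0.43 and 0.22) with overlapping sums. The sums of bone, cartilage, Schwann cell, neuron, skeletal muscle and keratinised epithelium markers overlapped between the genotypes. Of 8 skeletal muscle markers tested, 6 had a negative change (median -0.555). Their groups were apart on the lower side for 2, against 3.91% of all genes, and on the higher side for 0. Dspp, an odontoblast gene named after its values were seen, stood at 1565, 2256 and 1618 CPM in Smad7-/- libraries 1 and 2 and wild-type library 1. It stood at 2457, 2894 and 3355 CPM in Smad7-/- library 3 and wild-type libraries 2 and 3. edgeR called 0 of these osteoclast, macrophage and mesenchyme markers, against 0.0262% of all genes. DESeq2 called 3 of 7, 3 of 10 and 2 of 15, against 0.351%. In whole tissue, more cells of a type and more RNA per cell cannot be told apart, and the part these cells have in the values of Pappa2, Pappa, Igf2 and Igf1 was not tested.

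Pearson's correlation of log2 CPM over the 6 libraries, over 10842 or 10843 other genes whose mean reached 5 CPM, gave the genes whose pattern was most like each member. With 6 points and so many genes, coefficients this high are easily reached, and they serve as a description. Pappa2 was closest to Samd4, a repressor of translation, and Adcy1, an adenylyl cyclase (r = 0.998 and 0.992). Pappa was closest to Pax9, a transcription factor of dental mesenchyme, and Alcam, an adhesion molecule (0.988 and 0.981). Igf2 was closest to Wdr86 and Tspan2 (0.995 each) and Igf1 to Mdfic and Iqsec2 (0.993 and 0.989). For Stc1 the closest were Alyref2 and Gpc4 (0.997 each), and for Stc2 Zfp84 and Epas1, a hypoxia-inducible factor (0.959 and 0.958). Igf1r was closest to Brd2 and Rad17 (0.987 and 0.984), and Igf2r to Cdk5rap2 and Sec24d (0.996 and 0.991).

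**Figure D5:**
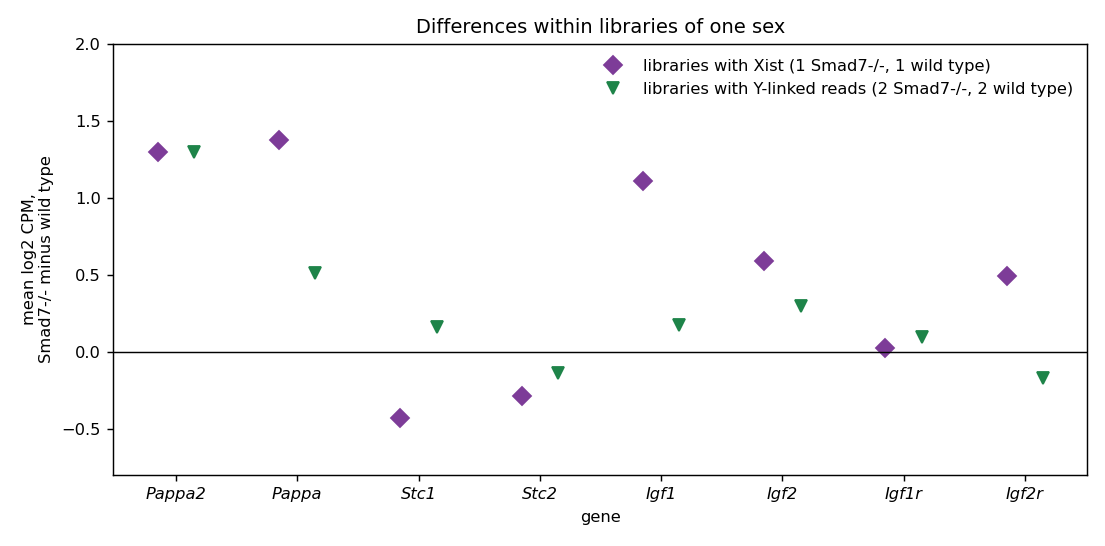
Difference in mean log2 CPM, Smad7-/- minus wild type, for each of the 8 genes within the 2 libraries that carry Xist (diamonds) and within the 4 libraries with Y-linked reads (triangles). Pappa2 is at 1.30 in each, while Stc1 and Igf2r have opposite signs.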

How the data were processed

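RNA of E15.5 tooth germs was sequenced in 3 Smad7-/- and 3 wild-type libraries, and the authors deposited raw counts per gene symbol, 1 table per library. Reads were aligned with HISAT2 to mm10 and counted with featureCounts, and DESeq2 is also named, per the submitters' processing notes, without versions. Per the labels' protocols the libraries came from 1 ug of total RNA with a TruSeq RNA kit. Of the 23420 symbols, 27 read as dates.

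Low counts were removed by filterByExpr, at a minimum count of 10 and a minimum total of 15, and libraries were scaled by TMM (factors 0.984 to 1.02). All genes were fitted over the 6 libraries with genotype alone in R 4.3.3 by edgeR 4.0.16 (quasi-likelihood), with Benjamini-Hochberg adjustment and a threshold of 0.05. SE is the log2 change divided by the root of F. Alternatives used DESeq2 1.42.0 and limma 3.58.1. Functions were tested on simulated data. The 8 genes, the lists and the alternatives were chosen with earlier results of these data known. Named list members are up to 4 past the threshold, or else the 2 most abundant. The values of 1 list member are not reported here. Positions and exon lengths come from GENCODE M21 (GRCm38), promoters from RefSeq (GRCm38.p6). Without molecular identifiers, PCR copies count as separate reads, so counting errors cover counting only.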

Additional observations from a re-analysis of the deposited data

Results flagged for a closer look

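Stc1 and Igf2r differed in opposite directions between the genotypes in female and male libraries. Over the 6 libraries the 2 genes mirrored each other (Pearson r of log2 CPM = -0.93), so they are not 2 separate cases. Stc1 was lower in Smad7-/- within the libraries with Xist, by -0.43 on the log2 scale, and higher within those with Y-linked reads, by 0.16. Igf2r was higher within the libraries with Xist, by 0.49, and lower within those with Y-linked reads, by -0.17. The libraries with Xist are 1 Smad7-/- and 1 wild-type library, so the differences within them rest on a single library per group. Those within the libraries with Y-linked reads rest on 2 per group. The share of all genes with opposite signs in these libraries was not counted.

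An interaction term of genotype and sex was added to the edgeR fit over all genes after the data were seen. It was -0.59 ± 0.27 SE for Stc1 and 0.66 ± 0.15 SE for Igf2r. The term measures any difference between the sexes in the genotype change, with or without opposite signs. Both genes were picked for their opposite signs in these same libraries, so their terms are a description. Neither passed the adjusted p threshold of 0.05. Such differences were common, since 134 of 15284 genes passed and 3087 had an unadjusted p under 0.05. Igf1, whose mean was higher in Smad7-/- within each sex, had a larger term, 0.98 ± 0.34 SE, which did not pass either. Since the first and second sets of libraries are the same split as this term, sex and any other difference between the sets cannot be told apart.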

How the results depend on the processing

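Pappa2 was called in 14 of 17 other fits, with log2 changes from 1.17 to 1.37. These fits reuse the libraries in which its call led to the choice of the group, so their number is no independent support. The fits without a call were those without Smad7-/- library 1 or 2 or wild-type library 1. The remaining 7 genes were called in 0 fits. The number of genes called in all, 4 by edgeR, was 59 by DESeq2, 2 at a mean of at least 5 CPM, 54 when only libraries with Y-linked reads were fitted, and 1 to 7 without 1 library. Of the pathway genes 0 were called, except for 2 by DESeq2.

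Without any one library the log2 change ran from 0.56 to 1.06 for Pappa, -0.11 to 0.07 for Stc1, -0.44 to -0.07 for Stc2, 0.28 to 0.75 for Igf1, 0.31 to 0.51 for Igf2, 0.0009 to 0.12 for Igf1r and -0.12 to 0.17 for Igf2r. Within the libraries with Xist it was 1.37 for Pappa, -0.43 for Stc1, 1.11 for Igf1, 0.59 for Igf2 and 0.49 for Igf2r. Within those with Y-linked reads it was 0.16 for Stc1 and -0.17 for Igf2r, or 0.15 and -0.18 by edgeR. Within the first set it was -0.60 for Stc2 and 0.18 for Igf1r. Within the second set it was 1.24 for Pappa, 0.17 for Stc2, -0.059 for Igf1r and 0.33 for Igf2r. Within the libraries with Xist the log2 differences of ratios were -0.073 for Pappa2 to Pappa, -0.52 for Igf2 to Igf1, -0.46 for Igf1r to Igf2r and -1.72 for stanniocalcins to pappalysins. The cause was not tested in any of these cases.

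With the longest transcript as length, wild-type levels moved by more than their SD for Igf2 (111), Igf1r (25.4), Igf1 (19.03) and Stc2 (0.461), and Igf1 then stood above Igf2r. The residuals of same-numbered libraries correlated at 0.169, -0.03 and 0.09, so the numbers were not taken to pair libraries. With the replicate number as a block edgeR called 4 genes and 0 pathway genes, and the log2 change of Pappa2 was 1.30. Counts of Stc2, from 53, and of Pappa, from 101, limit the precision of these genes.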
